A study of Mus musculus with 9 samples.

Results

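Nuclear-encoded oxidative phosphorylation genes were examined in the fracture callus of mice treated with a STING inhibitor, a STING agonist or vehicle. The genes were taken by symbol, as the Nduf, Sdh, Uqcr, Cox and Atp5 subunit genes of respiratory complexes I to V, by a rule that uses no measured value. The rule found 88 rows among the 22054 genes of the table, which carried 87 distinct symbols because Atp5o is listed under 2 gene IDs. Of these, 39 belonged by symbol to complex I, 4 to complex II, 8 to complex III, 19 to complex IV and 18 to complex V.

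RNA from callus was sequenced in 9 libraries, 3 in each of 3 groups. All animals were male C57BL/6J mice, labelled as 7 weeks old, whose left femur had been fractured at midshaft and fixed with a needle in the marrow cavity. Each group then received 200 μl by intraperitoneal injection once a day for a week. The H-151 group was given 750 nmol of H-151, a covalent inhibitor of STING, the SR-717 group was given 30 mg/kg of SR-717, a non-nucleotide STING agonist, and the PBS group was given phosphate-buffered saline. No group was unfractured, every animal had surgery, and the doses of the 2 compounds are stated in different units. Callus was taken on day 7. The tissue is labelled as bone, and the labels number the samples of a group without saying whether each came from a separate mouse, so p-values measure the spread between these libraries, which may be partly technical. The comparisons address whether blocking or activating STING altered the transcripts of the respiratory chain in early callus.

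Oxidative phosphorylation is carried out in the inner mitochondrial membrane. Complex I and complex II pass electrons from NADH and succinate to ubiquinone, complex III passes them to cytochrome c, complex IV reduces oxygen to water, and complex V, the ATP synthase, uses the proton gradient to make ATP. Complexes I, III, IV and V each combine subunits encoded in the nucleus with subunits encoded in mitochondrial DNA, while complex II is wholly nuclear. Several complex IV subunits exist as pairs of isoforms, and Cox6a2, Cox7a1 and Cox8b are the forms found in heart and skeletal muscle, where Cox6a1, Cox7a2 and Cox8a are the widely expressed counterparts. Cox7a1 and Cox8b are also well known in brown fat.

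The promoters of the isoform pairs are shown because the 3 muscle isoforms moved together across the libraries, over a wider range than their counterparts. The mean log2 CPM spanned 2.11 over the 9 libraries for the isoforms and 0.48 for the counterparts. The counterparts were highest in PBS replicate 3, where the isoforms were lowest, but both were low in SR-717 replicate 1. Each promoter is the RefSeq window of 300 bases, from 250 bases before to 50 after the gene start, in build GRCm38.p6. No window was available for Cox6a2, so its promoter is not shown. The windows lie at chr7:30183921-30184220 on the plus strand for Cox7a1, at chr7:140900397-140900696 on the minus strand for Cox8b, at chr5:115348909-115349208 on the minus strand for Cox6a1, at chr9:79759804-79760103 on the minus strand for Cox7a2 and at chr19:7217567-7217866 on the minus strand for Cox8a. All are written 5′ to 3′ on the strand of the gene. Capitals mark letters that match 1 of 6 motifs searched on both strands.
Cox7a1: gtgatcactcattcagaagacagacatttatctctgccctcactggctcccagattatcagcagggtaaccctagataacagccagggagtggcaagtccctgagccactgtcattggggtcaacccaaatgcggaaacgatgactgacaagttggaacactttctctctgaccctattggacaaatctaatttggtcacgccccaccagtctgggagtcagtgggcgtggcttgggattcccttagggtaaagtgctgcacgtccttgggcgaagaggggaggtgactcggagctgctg
Cox8b: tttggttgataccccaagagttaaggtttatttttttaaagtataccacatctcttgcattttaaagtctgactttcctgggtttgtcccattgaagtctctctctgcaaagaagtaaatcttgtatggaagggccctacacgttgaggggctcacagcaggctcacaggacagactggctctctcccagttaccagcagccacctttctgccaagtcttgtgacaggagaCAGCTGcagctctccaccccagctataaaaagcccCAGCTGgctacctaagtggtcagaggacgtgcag
Cox6a1: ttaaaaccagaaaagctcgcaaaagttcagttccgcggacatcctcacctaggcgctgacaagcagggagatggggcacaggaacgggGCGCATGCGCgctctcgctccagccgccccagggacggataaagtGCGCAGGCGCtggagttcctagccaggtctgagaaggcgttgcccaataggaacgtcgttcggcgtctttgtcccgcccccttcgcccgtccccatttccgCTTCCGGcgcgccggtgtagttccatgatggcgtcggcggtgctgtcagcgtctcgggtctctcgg
Cox7a2: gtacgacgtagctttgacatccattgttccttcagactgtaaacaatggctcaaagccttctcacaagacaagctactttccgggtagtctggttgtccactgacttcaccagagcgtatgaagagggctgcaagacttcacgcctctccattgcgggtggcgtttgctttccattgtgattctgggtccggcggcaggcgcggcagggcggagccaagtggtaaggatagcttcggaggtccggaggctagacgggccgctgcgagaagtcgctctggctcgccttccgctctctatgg
Cox8a: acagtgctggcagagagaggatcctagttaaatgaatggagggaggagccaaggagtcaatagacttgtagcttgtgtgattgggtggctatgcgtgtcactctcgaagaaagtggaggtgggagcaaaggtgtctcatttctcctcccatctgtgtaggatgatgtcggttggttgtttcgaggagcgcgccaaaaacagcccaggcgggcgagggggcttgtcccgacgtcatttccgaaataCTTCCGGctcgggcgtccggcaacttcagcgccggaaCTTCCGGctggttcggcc
The motifs were GCGC and TGCGC with any base between them for NRF1, CCGGAAG for the ETS factor GABPA, TCAAGGTCA for the oestrogen-related receptor alpha, AAGATGGC for YY1, CTA and TAG with any 4 bases between them for MEF2 and CAGCTG, an E-box used by myogenic factors. Cox6a1 held 2 NRF1 matches, starting 162 and 117 bases before the gene start, and 1 ETS match. Cox8a held 2 ETS matches, Cox8b held 2 E-boxes, and the Cox7a1 and Cox7a2 windows held no match to these letters.

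Promoter windows were matched for 69 of the 87 symbols. The NRF1 letters were in 17 of the 69, 24.6%, against 5.19% of the windows of all 27025 genes. The ETS letters were also in 17 of the 69, 24.6% against 9.93% of all genes. The YY1 letters were in 10, 14.5% against 3.19%, and the letters of the oestrogen-related receptor in 2, 2.9% against 0.466%. At least 1 of these 4 motifs was present in 38 of 69 windows, 55.1% against 16.8% of all genes. The muscle-linked letters were less frequent in the set than in all genes, with the E-box in 6 windows, 8.7% against 18.3%, and MEF2 in 1, 1.45% against 4.23%. In none of the 69 did matches to 2 different motifs share bases. Median GC content was 58.3% in the 69 windows and 52.8% in all genes, and its part in these shares was not tested.

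The deposited tables hold 16987398 to 23272480 estimated counts per library. Oxidative phosphorylation genes took 0.823% of the counts in SR-717 replicate 1, the lowest share, and 1.40% in SR-717 replicate 3, the highest. SR-717 replicate 1 stood apart from the other libraries over all genes, at 100.6 on a first principal component that held 46.6% of the variance. PBS replicate 1 lay at 38.8 on it and the others between -28.8 and -4.03. Results that rest on SR-717 replicate 1 are therefore given with and without it.

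Of the 88 rows, 83 passed the filter on low counts in every comparison. Ndufb11b, Cox8c, Cox7b2 and the second Atp5o row, ENSMUSG00000116933, had 0 counts in every library, which allows at most 0.129 to 0.177 CPM, a count scaled to library size, at the depth of the libraries (3 counts in each, counting error only). Cox5b-ps, a pseudogene by its symbol but annotated as protein-coding in GENCODE, had 1 count in 1 library. Counts that were not whole, as arise when reads are divided between similar genes, were found in 12 rows (values over 1e-06 from a whole number). Ndufb9 and Ndufb6 had them in all 9 libraries and Ndufa13 in 66.7%, so their levels are less certain.

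Levels of different genes were compared as TPM, a share of a library's transcripts that accounts for gene length. The most abundant transcript was Atp5b, the catalytic beta subunit of ATP synthase (chr10:128083273-128090391, plus strand), with a mean of 1041 TPM over 9 libraries. It was followed by Cox4i1, a regulatory subunit of complex IV, with 960 TPM. In complex III the highest was Uqcrh, the hinge protein, with 659 TPM, and in complex I it was Ndufa4 with 540 TPM. Ndufa4 carries a complex I symbol although its product is now known to join complex IV. Complex II was highest for Sdhb, the iron-sulfur subunit, at 244 TPM. The lowest tested gene of each complex was Ndufa4l2 with 60.3 TPM in complex I, Sdha with 169 TPM in complex II, Uqcrc2 with 147 TPM in complex III, Cox6b2, a form known from testis, with 8.80 TPM in complex IV and Atp5k with 147 TPM in complex V. The median gene was at 165 TPM in complex I, 198 in complex II, 309 in complex III, 316 in complex IV and 466 in complex V.

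The make-up of the set by complex was nearly constant. Complex I took 27.6% to 28.9% of the summed TPM of the 88 genes in the 9 libraries, complex II 3.04% to 3.54%, complex III 10.6% to 11.4%, complex IV 22.2% to 23.7% and complex V 33.5% to 35.4%. The sum itself ranged from 17012 TPM in SR-717 replicate 1 to 30382 TPM in SR-717 replicate 3, so 1 treatment group held both extremes.

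No gene of the set passed the thresholds below in any of the 3 comparisons by edgeR's quasi-likelihood test. For SR-717 against H-151, 0 of 83 genes were higher and 0 lower at an unadjusted p under 0.05 with at least 1.5-fold change, where 0.367% of 14151 genes were higher and 0.389% lower, 0.756% in all. For SR-717 against PBS, 0 were higher and 0 lower, where 0.27% of 14070 genes were higher and 0.249% lower, 0.519% in all. For H-151 against PBS, 0 were again higher and 0 lower, where 0.263% of 14085 genes were higher and 0.163% lower, 0.426% in all. Without the fold threshold 0 of the 83 reached an unadjusted p under 0.05 in any comparison, by edgeR or by DESeq2's Wald test, where edgeR gave such a p to 1.03%, 0.689% and 0.646% of all genes. No gene of the table passed an adjusted p of 0.05 in edgeR (0.0% called). With so few genes of the table called, 0 of 83 is near the background and does not set these genes apart.

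The size of change that these libraries could show was limited by the spread between replicates. The median standard error of a member's log2 fold change was 0.23 for SR-717 against H-151, 0.23 for SR-717 against PBS and 0.18 for H-151 against PBS. The 95% interval lay wholly within a 2-fold change either way for 76, 78 and 78 of the 83 genes, respectively. It lay within a 1.5-fold change for 27, 24 and 54 genes. For the other genes the interval reached past a 1.5-fold change.

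**Figure D1:**
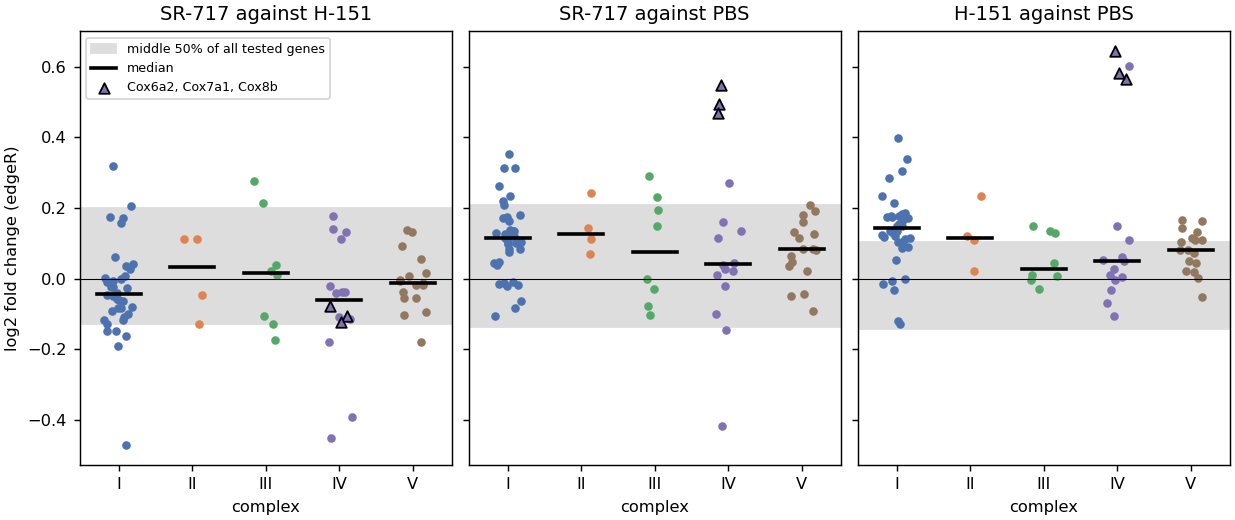
Log2 fold change (vertical axis, edgeR) of the 83 tested genes by complex (horizontal axis) in the 3 comparisons. Each point is a gene, triangles are Cox6a2, Cox7a1 and Cox8b, black bars are medians and the grey band holds the middle 50% of all tested genes. Most points lie within or near the band, and the triangles lie at 0.47 to 0.64 in the comparisons with PBS.

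The directions within the set were uneven. Against PBS, 64 of 83 genes had a log2 fold change above 0 in SR-717 and 70 of 83 in H-151, with medians of 0.10 and 0.11. Over all tested genes 52.2% lay above 0 and 47.8% below for SR-717, 44.2% above and 55.8% below for H-151, and the medians were 0.01 and -0.02. These 2 comparisons share the PBS libraries. For SR-717 against H-151, 28 genes lay above 0 and 55 below, with a median of -0.04, where all genes had 53.4% above 0, 46.6% below and a median of 0.02. Each of these medians depended on single libraries. Without H-151 replicate 3 the median of H-151 against PBS was -0.02, and without H-151 replicate 1 it was 0.23. Without SR-717 replicate 3 the median of SR-717 against PBS was -0.05, and without SR-717 replicate 1 it was 0.28. For SR-717 against H-151 the median was 0.15 without SR-717 replicate 1 and -0.20 without SR-717 replicate 3.

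The level of the set, taken as the mean log2 CPM of the 80 tested genes other than the 3 muscle isoforms, was 6.47, 6.62 and 6.64 in the PBS libraries. It was 6.44, 6.68 and 6.90 in the H-151 libraries and 6.25, 6.75 and 6.92 in the SR-717 libraries. The groups overlapped, and the highest and the lowest library were both from the SR-717 group. The mean difference was 0.07 for SR-717 against PBS and 0.10 for H-151 against PBS, beside standard deviations within groups of 0.09 for PBS, 0.23 for H-151 and 0.35 for SR-717 (n = 3 each). By complex, muscle isoforms included, the difference was 0.06 to 0.13 for SR-717 against PBS, 0.05 to 0.18 for H-151 against PBS and -0.10 to 0.01 for SR-717 against H-151. On the log2(TPM + 1) scale the differences of SR-717 from PBS turned negative for complexes I, III, IV and V, between -0.04 and -0.01.

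SR-717 replicate 1 was low throughout the set. All 80 genes lay below their mean in the other 8 libraries, by a median of 0.42 on the log2 scale, where 7358 of 14294 genes of the table did so and the median was -0.02. It was the lowest of the 9 libraries for 61 of the 80 genes, 76.2%, and for 25.6% of all genes. Genes that were lowest elsewhere included Cox8a and Cox6b1, which were lowest in H-151 replicate 1, and Sdha, Uqcrc1, Ndufs7 and Cox5a, which were lowest in PBS replicate 3. At the other end, SR-717 replicate 3 was highest for 34 genes and H-151 replicate 3 for 27.

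**Figure D2:**
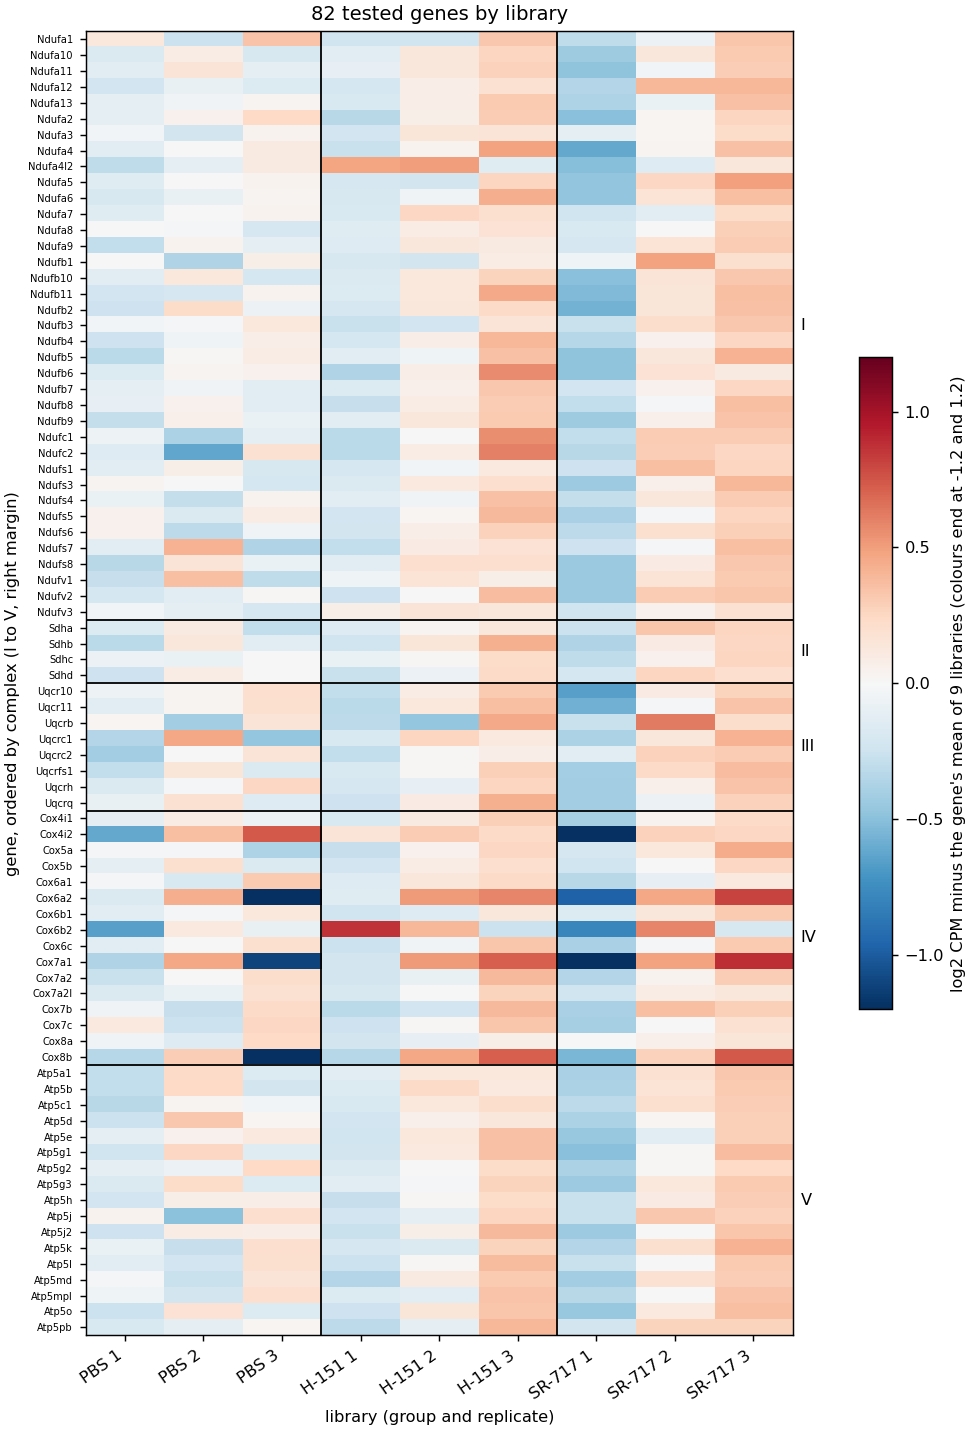
Log2 CPM of 82 of the 83 tested genes (rows, ordered by complex) minus each gene's mean over the 9 libraries (columns, by group and replicate). Blue marks levels below and red above the mean, and the SR-717 replicate 1 column is blue in nearly all rows while SR-717 replicate 3 and H-151 replicate 3 are mostly red.

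Markers of other cell types differed in the same library. The 10 neutrophil genes, of which 10 were tested and none was at 0, summed to 35290 TPM in SR-717 replicate 1. Their sum was 6716 and 9467 TPM in the other SR-717 libraries, 1534 to 9868 TPM in PBS and 3080 to 12480 TPM in H-151. The 7 chondrocyte genes were lowest there, at 197 TPM against 787 to 5948 TPM in the other libraries. Across the 9 libraries the level of the 80 genes had a Pearson correlation of -0.65 with the neutrophil level, and of -0.38 over the 8 libraries without SR-717 replicate 1. These are descriptions over libraries of shared processing, and the part of cell composition in the low library was not tested.

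With SR-717 replicate 1 left out, 75 of 83 genes lay above 0 for SR-717 against H-151 and 82 of 83 for SR-717 against PBS. The all-gene medians were then -0.01 and -0.02. SR-717 replicate 1 lay below the mean of the other libraries for all 80 genes other than the muscle isoforms. Leaving it out therefore raised the SR-717 values, and fewer SR-717 libraries remained. The genes also moved together over the libraries, so the counts that follow are not independent evidence of an increase. At an unadjusted p under 0.05 in edgeR, 3 genes were higher against H-151, where 1.02% of all genes were higher, and 5 were higher against PBS, where 0.55% were. No gene of the set was lower, where 1.25% and 0.444% of all genes were. None of them reached 1.5-fold and every adjusted p was 1.0. Among these genes the largest difference against PBS was that of Ndufa12, an accessory subunit of complex I, with a log2 fold change of 0.57 ± 0.13 (SE) and an unadjusted p of 0.006. Its levels were 52.6, 57.9 and 55.1 CPM in PBS and 48.4, 81.6 and 81.4 CPM in SR-717, so the low value was that of the library left out. Ndufa12 was also among the 3 genes higher against H-151, at 0.37, and Ndufs1 was in both lists, at 0.34 against H-151 and 0.40 against PBS. The others were Ndufb1 against H-151, and Ndufa5, Ndufv2 and Ndufc1 against PBS. All 6 are complex I genes, as were 38 of the 83 tested, and they were named after their values were seen. Complex I did not stand out by level. Without SR-717 replicate 1 its difference from PBS was 0.28 on the log2 scale. The others, muscle isoforms included, were 0.30 for complex II, 0.28 for III, 0.34 for IV and 0.26 for V.

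The complexes followed one another closely. The level of complex I had a Pearson correlation over the 9 libraries of 0.99 with complex V, 0.97 with complex III, 0.95 with complex II and 0.93 with complex IV without its muscle isoforms. Without SR-717 replicate 1 these values were 0.98, 0.96, 0.94 and 0.89. The median standard deviation of log2 CPM over the 9 libraries was 0.25 for the 80 genes and 0.31 for all 14294 genes. The genes were not matched for expression level, so these values do not show that the set varied less than genes of similar abundance.

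**Figure D3:**
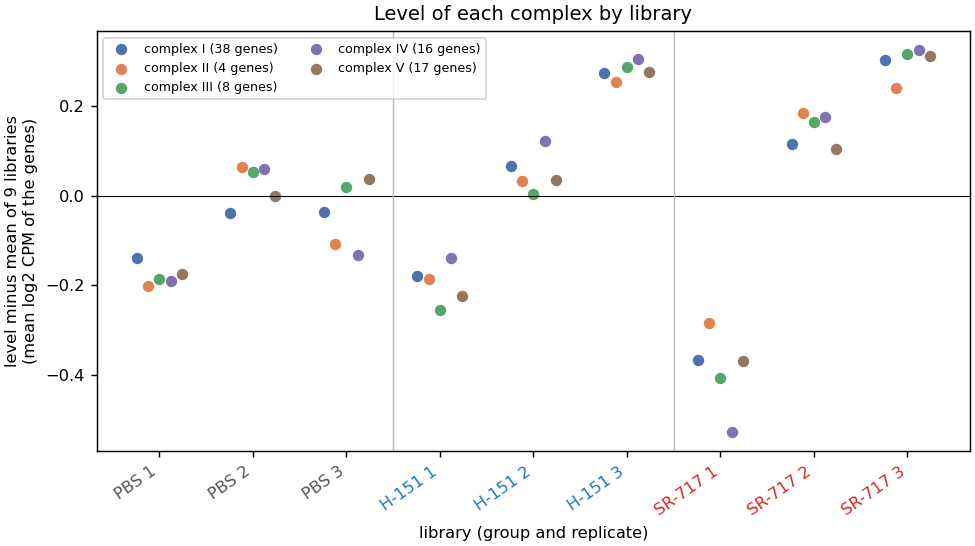
Mean log2 CPM of the tested genes of each complex minus its mean over 9 libraries (vertical axis) in each library (horizontal axis). Points of the 5 complexes lie close together within a library, lowest in SR-717 replicate 1 and highest in SR-717 replicate 3 and H-151 replicate 3.

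Complex I was described in most detail by its 38 tested genes. Its level was 5.96, 6.06 and 6.06 log2 CPM in PBS, 5.92, 6.17 and 6.38 in H-151 and 5.73, 6.22 and 6.40 in SR-717. Genes of the catalytic core, which carries the flavin and the iron-sulfur clusters, included Ndufv1, Ndufv2, Ndufs1, Ndufs3, Ndufs7 and Ndufs8. Their log2 fold changes lay between -0.08 and 0.17 for SR-717 against H-151, between 0.04 and 0.23 for SR-717 against PBS and between -0.01 and 0.17 for H-151 against PBS. Ndufs1, the largest subunit, was at 81.8, 94.4 and 78.6 CPM in PBS, 78.2, 88.2 and 97.7 CPM in H-151 and 75.8, 116 and 108 CPM in SR-717. The SR-717 group thus held both the lowest and the 2 highest values.

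Ndufv3, a flavoprotein subunit, was the only gene of the set whose libraries did not overlap between 2 groups. It was at 49.0, 46.3 and 43.6 CPM in PBS and at 52.6, 55.7 and 54.97 CPM in H-151. The log2 fold change was 0.23 ± 0.11 (SE), with an unadjusted p of 0.08. Over all genes 1.56% were higher in H-151 than in PBS without overlap and 2.31% lower, so 1 of 83 genes is near that background. No gene of the set was without overlap for SR-717 against H-151, where 2.67% of genes were higher and 2.51% lower, or for SR-717 against PBS, where 1.49% were higher and 2.26% lower.

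Ndufa4l2, a paralogue of Ndufa4 known to be induced by hypoxia, had the largest decrease for SR-717 against H-151. It was at 41.1, 41.9 and 26.7 CPM in H-151, at 20.8, 26.5 and 32.4 CPM in SR-717 and at 23.9, 27.5 and 31.9 CPM in PBS. Both of its highest values were from H-151, but the third H-151 library lay among the others. The log2 fold change of SR-717 against H-151 was -0.47 ± 0.25 (SE), with an unadjusted p of 0.104. Without H-151 replicate 3 it was -0.66 with an unadjusted p of 0.0298, which was the only call in that direction under any alternative and had an adjusted p of 0.999. At the other end, Ndufb1 was the gene with the largest increase for the same comparison, at 0.32 ± 0.18 (SE), and its gene ID is annotated as a long non-coding RNA at a bidirectional promoter in GENCODE. For H-151 against PBS the largest decreases were those of Ndufb3 and Ndufa1, accessory subunits of complex I, at -0.13 and -0.12.

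Complex II, which oxidises succinate in both the citric acid cycle and the respiratory chain, had 4 genes with small differences. Sdha, the flavoprotein, was at 234, 283 and 215 CPM in PBS, 235, 269 and 289 CPM in H-151 and 220, 330 and 314 CPM in SR-717. Its log2 fold change against PBS was 0.24 ± 0.22 (SE) in SR-717 and 0.12 ± 0.16 in H-151. Sdhb, Sdhc and Sdhd differed from PBS by 0.07 to 0.14 in SR-717 and by 0.02 to 0.23 in H-151, with no unadjusted p under 0.303.

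Complex III held 8 genes, of which 4 lay above 0 and 4 below for SR-717 against PBS. Uqcrc1, a core subunit, was at 193, 340 and 179 CPM in PBS, so the PBS libraries spanned a wider range than the difference from SR-717, at 189, 271 and 330 CPM. Its log2 fold change was 0.15 ± 0.33 (SE). Uqcrc2 differed by 0.23 and Uqcrfs1, the Rieske iron-sulfur protein, by 0.19 in the same comparison. Uqcrb, a small ubiquinone-binding subunit, had the second largest increase for SR-717 against H-151, at 0.28 ± 0.32, with 62.0, 55.9 and 105 CPM in H-151 and 63.9, 119 and 89.0 CPM in SR-717.

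Complex V was represented by 17 tested genes. Atp5b was at 869, 1256 and 913 CPM in PBS, 949, 1246 and 1156 CPM in H-151 and 820, 1191 and 1320 CPM in SR-717. Its log2 fold change was -0.02 ± 0.23 (SE) for SR-717 against H-151, 0.13 ± 0.26 for SR-717 against PBS and 0.14 ± 0.21 for H-151 against PBS. Atp5a1 and Atp5c1, the alpha and gamma subunits, differed from PBS by 0.13 and 0.18 in SR-717 and by 0.10 and 0.17 in H-151. No gene of complex V differed by more than 0.21 in any comparison.

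Complex IV held the largest differences from PBS, and these were in its tissue-restricted forms. The tested genes other than Cox4i2, Cox6b2 and the muscle isoforms differed from PBS by -0.14 (Cox6a1) to 0.27 (Cox5a) in SR-717 and by -0.10 (Cox8a) to 0.15 (Cox5a) in H-151. Cox4i2, a form of subunit 4 known from lung and linked to hypoxia, was at 6.68, 13.2 and 17.2 CPM in PBS, 11.4, 12.7 and 12.1 CPM in H-151 and 3.10, 12.4 and 12.2 CPM in SR-717. It had the largest decrease for SR-717 against PBS, at -0.42 ± 0.59 (SE) with an unadjusted p of 0.502, and the low value was that of SR-717 replicate 1. Cox6b2 was at 1.37, 2.41 and 2.08 CPM in PBS and 4.12, 2.96 and 1.83 CPM in H-151, a log2 fold change of 0.60 ± 0.39.

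The muscle isoforms had the largest positive differences from PBS, with Cox6b2 among them for H-151. Cox6a2 (chr7:128205435-128206387, minus strand) was at 68.1, 104 and 26.4 CPM in PBS, 69.3, 109 and 115 CPM in H-151 and 39.2, 106 and 135 CPM in SR-717. Cox7a1 (chr7:30184144-30186078, plus strand) was at 10.2, 18.2 and 6.01 CPM in PBS, 11.3, 18.7 and 21.7 CPM in H-151 and 5.01, 18.4 and 24.4 CPM in SR-717. Cox8b (chr7:140898945-140900446, minus strand) was at 10.9, 16.995 and 5.79 CPM in PBS, 10.9, 19.1 and 22.8 CPM in H-151 and 9.45, 16.8 and 23.1 CPM in SR-717. For all 3 genes PBS replicate 3 and SR-717 replicate 1 were the low libraries and the groups overlapped.

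None of these differences passed a test with all libraries of a comparison in the fit. For H-151 against PBS the log2 fold changes were 0.56 ± 0.47 (SE) for Cox6a2, 0.58 ± 0.43 for Cox7a1 and 0.64 ± 0.43 for Cox8b, with unadjusted p values of 0.268, 0.22 and 0.182. For SR-717 against PBS they were 0.49 ± 0.61, 0.47 ± 0.64 and 0.55 ± 0.48. Between SR-717 and H-151 they were -0.08, -0.12 and -0.11. The 95% interval for Cox8b in H-151 against PBS ran from -0.39 to 1.68. PBS replicate 3 carried much of the difference from PBS, since without it the values were 0.19, 0.28 and 0.33 for H-151 and 0.12, 0.16 and 0.24 for SR-717. Without SR-717 replicate 1 the values for SR-717 against PBS were 0.86, 0.90 and 0.83, still with no unadjusted p under 0.0998. Without PBS replicate 2, Cox7a1 and Cox8b were called higher in H-151, at 1.09 with an unadjusted p of 0.0289 and 1.08 with an unadjusted p of 0.0446. PBS replicate 2 had the highest isoform level of the PBS libraries, at a mean log2 CPM of 5.00 against 4.31 and 3.30. It was also highest of them for the skeletal muscle genes described below, at 9.53 against 8.84 and 7.69. The share of all genes called in that fit is not given here, so these calls have no background beside them.

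As a share of the summed TPM with its widely expressed counterpart, Cox6a2 made up 22.0%, 32.4% and 7.95% in PBS, 23.9%, 28.8% and 28.7% in H-151 and 16.7%, 31.6% and 33.6% in SR-717. The mean share was 20.8% ± 12.3 (SD, n = 3) in PBS, 27.1% ± 2.79 in H-151 and 27.3% ± 9.23 in SR-717. Cox7a1 made up 14.4% ± 7.00 of its pair in PBS, 19.2% ± 3.21 in H-151 and 17.1% ± 7.57 in SR-717. Cox8b made up 8.50% ± 4.74 in PBS, 12.9% ± 3.06 in H-151 and 11.1% ± 3.71 in SR-717. The widely expressed form was thus the more abundant of each pair in all 9 libraries. The levels of the counterparts were close, with mean log2 CPM of Cox6a1, Cox7a2 and Cox8a at 7.37 in PBS, 7.37 in H-151 and 7.35 in SR-717.

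Genes of the contractile apparatus moved with the muscle isoforms. The 20 skeletal muscle genes, among them Acta1, Ckm and Myh4, were all tested and none was at 0 in any library. Their summed level was 9510 to 39490 TPM in PBS, 25840 to 38300 TPM in H-151 and 16910 to 49570 TPM in SR-717, again lowest in PBS replicate 3 and SR-717 replicate 1. All 20 had a log2 fold change above 0 in both comparisons with PBS, with medians of 0.42 for H-151 and 0.55 for SR-717, and none was called. The level of the 3 isoforms had a Pearson correlation of 0.98 with that of the 20 genes over 9 libraries, and of 0.98 over 8 libraries without SR-717 replicate 1. The isoform level minus the muscle gene level lay between -4.69 and -4.21 on the log2 scale, while the muscle gene level itself ranged from 7.69 to 9.88. In bulk tissue, fewer muscle cells and less RNA per muscle cell cannot be told apart. The part of muscle content in the isoform differences was not tested.

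**Figure D4:**
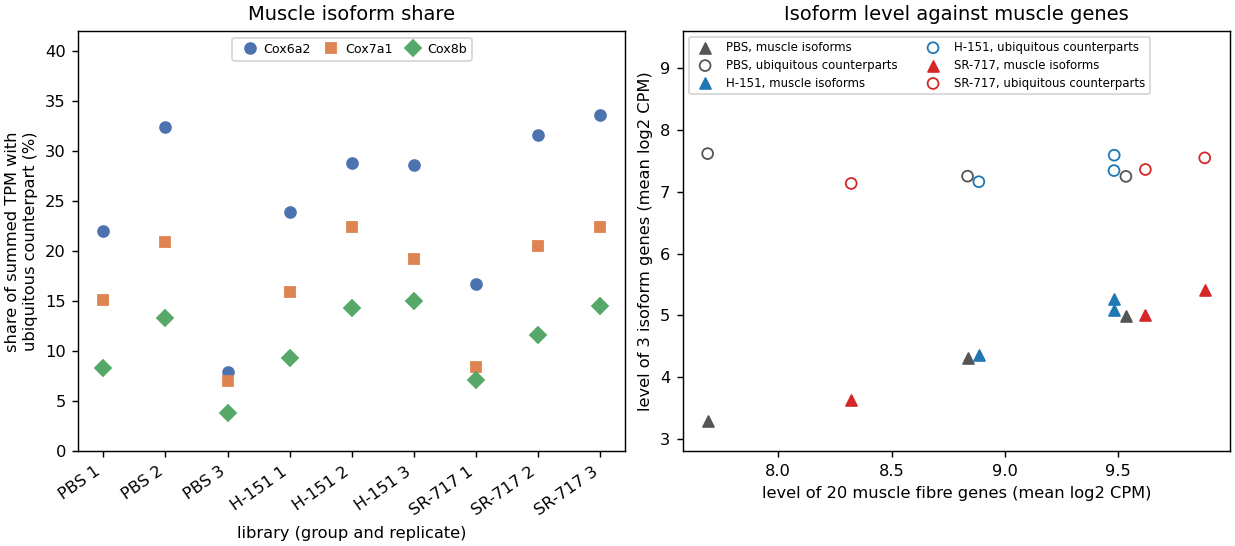
Left, share (%) of Cox6a2, Cox7a1 and Cox8b in the summed TPM of each with its widely expressed counterpart, by library. All 3 are lowest in PBS replicate 3, and the next lowest is SR-717 replicate 1. Right, mean log2 CPM of the 3 muscle isoforms (triangles) and the 3 counterparts (circles) against that of 20 muscle fibre genes, 1 point per library. The triangles are higher where the muscle genes are higher and the circles lie between 7.14 and 7.62.

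Of the brown fat markers, Ucp1, Cidea and Elovl3 were at or near 0, but Dio2 lay between 6.00 and 14.4 CPM. Ucp1, the uncoupling protein that defines brown adipocytes, had 0 counts in all 9 libraries, and Cidea lay between 0.207 and 0.889 CPM. Dio2, which is expressed in several tissues, was called higher in SR-717 than in PBS, with a log2 fold change of 0.69 ± 0.26 (SE), an unadjusted p of 0.0329 and an adjusted p of 1.0. The 5 genes of that list summed to between 2.74 and 5.45 TPM. The level of the 3 of them that passed the filter over 9 libraries, Cidea, Dio2 and Ppargc1a, had a Pearson correlation of 0.95 with the muscle isoforms. Cidea was near the floor. Dio2 was highest in SR-717 replicate 1, at 14.4 CPM, where the muscle isoforms were low, so it did not follow them there. Ppargc1a was lowest in PBS replicate 3 and SR-717 replicate 1, at 0.674 and 0.826 CPM, the libraries where the muscle genes were lowest. The part of muscle content in this correlation was not tested.

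By the profile over 9 libraries, the genes most like the 3 muscle isoforms among 13426 candidates were Fzd4, Tmem182, Fbxo40, Tpm1 and Ldb3, with Pearson correlations of 0.99, 0.99, 0.99, 0.98 and 0.98. Those most like the other 80 genes were Tmem223, Slc25a4, Ephx2, Uqcc3 and Chchd1, at 0.97, 0.97, 0.97, 0.97 and 0.96. These were picked from many genes over few libraries and carry no test.

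The other genes of mitochondrial respiration were likewise not called. The 4 further subunits and carriers, Ndufab1, Cyc1, Cycs and Atpif1, had medians of 0.20 for SR-717 against PBS and 0.19 for H-151 against PBS, with 0 of 4 called. Of 47 assembly factors, 46 were tested and 0 were called, with medians between 0.01 and 0.04 in the 3 comparisons. Of 17 citric acid cycle genes, 0 were called, and 14 lay above 0 for SR-717 against PBS and 15 for H-151 against PBS, with medians of 0.16 and 0.11. Their level had a Pearson correlation of 0.93 with that of the 80 genes over 9 libraries, and the assembly factors one of 0.91. Regulators of mitochondrial biogenesis, 13 of 14 tested, had 0 calls and medians of -0.04 and -0.03 against PBS. Among them Ppargc1a, the coactivator PGC-1 alpha, was at 0.674 to 2.83 CPM, and Nrf1 was at 25.8 to 36.5 CPM.

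The 13 mitochondrially encoded genes did not follow the nuclear set. They took 7.48% to 20.4% of the TPM of a library, highest in H-151 replicate 3 and lowest in PBS replicate 2, where the 88 nuclear genes took 1.70% to 3.04%. The ratio of mitochondrial to nuclear TPM was 2.82 to 6.52 in PBS, 2.99 to 7.64 in H-151 and 2.87 to 9.18 in SR-717. The Pearson correlation between the levels was -0.02 over 9 libraries and 0.25 without SR-717 replicate 1. None of the 13 was called in any comparison, and their medians were 0.01, 0.12 and 0.09 for SR-717 against H-151, SR-717 against PBS and H-151 against PBS. The libraries were made by poly(A) selection, and its part in the mitochondrial share was not tested.

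**Figure D5:**
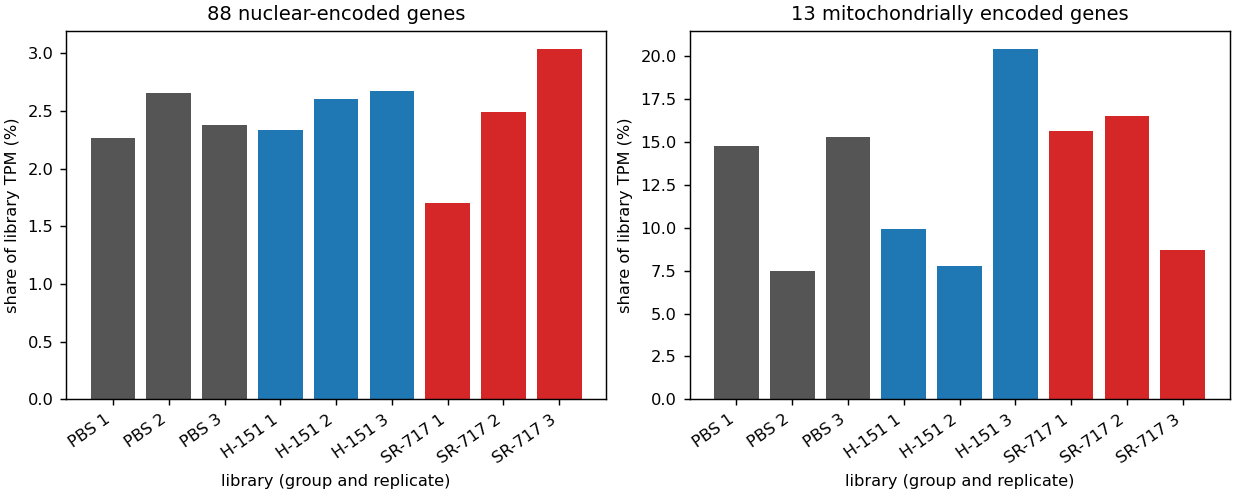
Share of library TPM (%) taken by the 88 nuclear-encoded genes (left) and the 13 mitochondrially encoded genes (right), 1 bar per library, coloured by group. The nuclear share runs from 1.70% to 3.04% and the mitochondrial share from 7.48% to 20.4%, with different libraries at the extremes.

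Among 16 gene lists examined beside the set, Dio2 was the only gene called in any comparison. Over all tested genes 0.756% were called for SR-717 against H-151, 0.519% for SR-717 against PBS and 0.426% for H-151 against PBS. With so few genes called, neither this call nor the lists without a call stand out. The lists of osteoblast, osteoclast, endothelial, macrophage, erythroid, adipocyte and keratinocyte genes held no call. Osteoblast genes summed to 7325 TPM in SR-717 replicate 1 and to 12060 to 19220 TPM in the others, so the markers of the labelled tissue were present in every library. Osteoclast genes summed to 5211 to 10930 TPM, endothelial genes to 383 to 515 TPM and macrophage genes to 1014 to 2244 TPM. Erythroid genes spanned 1292 to 41190 TPM, adipocyte genes 18.8 to 157 TPM and keratinocyte genes 2.23 to 21.2 TPM.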

How the data were processed

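Callus RNA was sequenced by a service company for the authors from poly(A)-selected, strand-specific libraries read as 150 bp pairs per the labels. The authors deposited 1 table with an estimated count and a TPM value per gene and library, the second normalised by them to gene length and library size. The build was mm10 per the submitters' processing notes, and aligner, counter and annotation are not given in the sources used here. Of the count values, 8.91% were not whole (over 1e-06 from a whole number), and counts were rounded. Positions were taken from GENCODE M21 on GRCm38, the assembly that mm10 names.

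Each comparison used its 6 libraries in edgeR 4.0.16 in R 4.3.3 (filterByExpr with a minimum count of 10, TMM, glmQLFit, glmQLFTest), with p values adjusted over all tested genes by Benjamini and Hochberg. A gene was called at an unadjusted p under 0.05 with at least 1.5-fold change, the thresholds of the study, and also at an adjusted p under 0.05. CPM and log2 CPM used TMM over 9 libraries with a prior count of 2. The fit was tested on simulated data. DESeq2 1.42.0 and the other alternatives are given below. The extraction note in the labels speaks of cell lines, while the study describes callus tissue.

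The symbol rule uses no measured value, but this gene family and the lists were picked for description with earlier results of these data known. Genes were named by rule, apart from 1 that is not reported here: the isoforms and core subunits, the highest and lowest in TPM of each complex, those called, the 2 largest changes each way in each comparison, and the 5 genes most like each pattern. How each library departed from its own group was correlated between libraries that share a replicate number. The correlations were 0.14 to 0.65 for SR-717 against PBS and 0.30 to 0.50 for H-151 against PBS. They were 0.06 to 0.34 for SR-717 against H-151. These ranges overlap and the labels state no pairing, so the correlations cannot decide whether libraries were paired. The main fits used no pairing, and a fit with the replicate number as a block is given below.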

Additional observations from a re-analysis of the deposited data

How the results depend on the processing

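The count of called genes stayed at 0 in each comparison and direction with DESeq2's Wald test, DESeq2 size factors, all 9 libraries in 1 fit, a mean count of at least 50, no filter on low counts and a 2-fold threshold. Leaving out 1 library at a time gave 0 to 1 genes lower for SR-717 against H-151 (Ndufa4l2 without H-151 replicate 3) and 0 to 2 higher for H-151 against PBS (Cox7a1 and Cox8b without PBS replicate 2), and 0 otherwise. The share of all genes called in these fits is not given here. The median log2 fold change of the genes then ran from -0.20 to 0.15 for SR-717 against H-151, from -0.05 to 0.28 for SR-717 against PBS and from -0.02 to 0.23 for H-151 against PBS. From log2(TPM + 1), the level differences of SR-717 against PBS were -0.01 for complex I, -0.04 for III, -0.02 for IV and -0.04 for V, where log2 CPM gave 0.09, 0.06, 0.08 and 0.06. Complex II kept its sign there, at 0.04, and turned from 0.01 to -0.07 for SR-717 against H-151, as complex III did. The isoform shares in the H-151 group were 30.7% for Cox6a2, 12.5% for Cox7a1 and 8.85% for Cox8b from counts, which are not scaled by gene length.

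A block for the replicate number gave medians of -0.04, 0.08 and 0.10 for SR-717 against H-151, SR-717 against PBS and H-151 against PBS. It called 0 genes, so the block changed no call. The precision of these values is set by 3 libraries per group more than by depth: the lowest count of a tested gene in any library was 24, for Cox6b2.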

Other observations

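Within the mitochondrially encoded genes, the overlapping pair mt-Atp8 and mt-Atp6 changed in ratio between libraries. The TPM of mt-Atp8 divided by that of mt-Atp6 was 1.14 in SR-717 replicate 1, 1.01 in PBS replicate 3, 0.562 in H-151 replicate 3 and 0.441 in SR-717 replicate 2, and between 0.0999 and 0.166 in the other 5 libraries. The level of mt-Atp8 ranged from 93.9 to 2656 CPM, so that each group held both low and high libraries. The 2 genes overlap, so their reads may not be separable. mt-Nd2 was also highest in SR-717 replicate 1 and PBS replicate 3, at 7483 and 7202 CPM against 1052 to 4685 CPM in the other 7 libraries. The same 2 libraries were highest for the nuclear gene Gabpa, a regulator of mitochondrial genes, at 59.9 and 73.4 CPM against 13.8 to 25.4 CPM elsewhere, and they were the 2 libraries with the lowest share of each muscle isoform. These values were picked after they were seen, and no test was made of them.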
